A study of Mus musculus with 2 samples.

Results

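Transcripts of the oxidative phosphorylation machinery were described in 4 classes of barcodes from mouse tumours, 3 immune and 1 keratin-bearing. The members were the features named Nduf with a letter a, b, c, s or v and a number, Uqcr, Cox4 to Cox8, Sdha to Sdhd and Atp5, with the mitochondrially encoded mt-Nd, mt-Co and mt-Atp genes. They numbered 96 of the 31053 genes of the matrix, 84 of them nuclear and 12 mitochondrial. The study, on inhibitors of ACSS2 in a triple negative mammary tumour model by its title, pooled tumour cells of 3 ACSS2i-treated and 3 vehicle-treated samples on 1 droplet lane. The strain label reads NGS mouse, the design text names Bmal1 status, and neither the dose nor the age of the animals is among the labels. A second library of the same pool gave counts for 6 antibody tags (D0, D1, D4, U2, U3, U4) on the same 9747 barcodes. The labels and files do not state which tag marks which treatment, so the ACSS2i samples could not be set against the vehicle samples. The comparisons are instead between classes of barcodes within the 1 pool, and each tag shows only whether its barcodes go the same way. Since the treatment of the tags is unknown, they were not used as replicates in a test between classes, and no p-value is given.

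Oxidative phosphorylation takes place at the inner mitochondrial membrane. Complex I (NADH dehydrogenase) and complex II (succinate dehydrogenase) pass electrons to ubiquinone, complex III hands them to cytochrome c, and complex IV (cytochrome c oxidase) gives them to oxygen. The protons pumped by complexes I, III and IV drive complex V, the ATP synthase. The subunits of complexes I, III, IV and V are encoded partly in the small mitochondrial genome and partly in the nucleus. All subunits of complex II are nuclear. In T cells and macrophages the balance between respiration and glycolysis is known to shift with activation state.

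Barcodes were assigned by a few transcripts each: T by at least 2 UMIs (unique molecular identifiers, 1 per captured transcript) of Cd3d, Cd3e and Cd3g, NK by Ncr1 or Klrb1c without Cd3, macrophage by at least 3 UMIs of C1qa, C1qb and C1qc, and tumour by at least 3 UMIs of Krt8 and Krt18 without Ptprc. Of 7919 barcodes kept, 730 were T, 121 NK, 396 macrophage and 5212 tumour barcodes, 51 met more than 1 rule and 1409 met none. Median depth was 1648 UMIs in T, 3359 in NK and 4327 in macrophage barcodes, against 25138 in tumour barcodes. The summed T marker list stood at 4101 CPM (UMIs of the gene per 1000000 UMIs of the class) in T barcodes and 3.05 CPM in tumour barcodes, the NK list at 3379 CPM in NK barcodes against 0.960 CPM, and the macrophage list at 12352 CPM in macrophage barcodes against 10.8 CPM. The epithelial list reached 1042 CPM in tumour barcodes, nearly all of it Krt8 and Krt18, which the rule used. Epcam, Cdh1, Krt19 and Krt7 were each below 0.1 CPM there and Cldn4 was at 0, while the fibroblast genes Dcn and Col3a1 stood at 2580 and 427 CPM. The label tumour therefore rests on the 2 keratins alone.

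Some immune barcodes also carried 3 or more keratin UMIs. They were 29 T, 8 NK and 39 macrophage barcodes, with a median depth of 24738, 23933 and 28321 UMIs, and they held 33.1%, 32.6% and 40.3% of the UMIs of their classes. The sums, counts and most named genes are therefore also given without them, which leaves 701 T, 113 NK and 357 macrophage barcodes, and these values are called keratin-low below. Ratios are CPM of the immune class over CPM of tumour barcodes. Their exact 95% intervals cover counting error only. Tags were compared where a class held at least 20 barcodes of that tag. This was so for 6 tags in T, 3 in NK and 5 in macrophage barcodes (4 in keratin-low macrophage barcodes). Of the 5212 tumour barcodes 1850 had no tag, against 1 NK and 0 T or macrophage barcodes. Pooled ratios thus use tumour barcodes that no comparison within tags holds. For some genes the tag values of an immune class are said not to overlap those of tumour barcodes. The share of all genes that separate in this way is not given here. Genes were named partly for extreme ratios in these same barcodes, so such separation describes them and adds no separate support.

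Promoters of nuclear members are known to carry sites for the factors NRF1, the ETS family member GABP, and YY1. Windows from 250 bases before to 50 after the start site were available for 66 of the 83 nuclear symbols (RefSeq, GRCm38.p6). Some genes had more than 1 window, and a gene was counted once if any of its windows matched. The NRF1 letters are GCGCA and GCGC with 1 base of any kind between them. Searched on both strands, they occurred in 17 of 66 members (25.8%), 13.0% of 6232 genes reaching 10 CPM in these classes and 5.19% of all 27025 genes. The ETS core CCGGAAG occurred in 24.2% of members, against 22.6% and 9.93%, and the YY1 letters ATGGCGG in 15.2%, against 10.6% and 4.69%. By complex, the NRF1 letters stood in 7 of 31 genes of complex I, 6 of 13 of complex V and 1 of 13 of complex IV. A match describes letters in the window and not a bound site. The windows of 5 genes are printed 5′ to 3′, with matches to these letters, or to their reverse complement, in capitals. Atp5h (chr11:115419870-115420169, minus strand) and Atp5g2 (chr15:102670998-102671297, minus strand) show the NRF1 letters. Uqcrh (chr4:116075021-116075320, minus strand) and Uqcr11 (chr10:80406772-80407071, minus strand) are 2 complex III genes that differed in opposite directions between classes. Ndufa4 (chr6:11907401-11907700, minus strand), whose level differed between T and macrophage barcodes, holds none of the 3 motifs.
Atp5h: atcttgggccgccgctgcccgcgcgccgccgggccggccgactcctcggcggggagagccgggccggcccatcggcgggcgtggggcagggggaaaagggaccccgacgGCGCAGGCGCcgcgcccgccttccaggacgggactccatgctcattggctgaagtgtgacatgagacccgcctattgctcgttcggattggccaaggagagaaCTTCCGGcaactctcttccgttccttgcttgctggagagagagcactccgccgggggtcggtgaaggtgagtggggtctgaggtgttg
Atp5g2: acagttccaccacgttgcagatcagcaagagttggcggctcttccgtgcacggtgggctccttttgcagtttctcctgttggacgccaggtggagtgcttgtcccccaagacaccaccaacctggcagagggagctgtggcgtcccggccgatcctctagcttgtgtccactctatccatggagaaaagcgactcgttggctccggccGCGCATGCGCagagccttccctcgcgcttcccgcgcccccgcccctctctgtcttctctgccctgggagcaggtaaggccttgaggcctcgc
Uqcrh: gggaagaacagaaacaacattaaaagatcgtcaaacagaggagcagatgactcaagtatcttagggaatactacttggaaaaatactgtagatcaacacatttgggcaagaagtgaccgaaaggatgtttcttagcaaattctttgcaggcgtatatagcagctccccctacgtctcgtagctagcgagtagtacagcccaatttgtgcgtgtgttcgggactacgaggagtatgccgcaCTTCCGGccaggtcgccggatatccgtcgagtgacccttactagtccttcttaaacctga
Uqcr11: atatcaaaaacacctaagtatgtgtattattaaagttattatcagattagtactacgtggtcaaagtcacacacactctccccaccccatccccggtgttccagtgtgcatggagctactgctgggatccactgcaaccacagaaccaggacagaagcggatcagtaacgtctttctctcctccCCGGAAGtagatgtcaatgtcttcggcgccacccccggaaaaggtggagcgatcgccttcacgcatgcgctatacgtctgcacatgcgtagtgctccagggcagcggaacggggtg
Ndufa4: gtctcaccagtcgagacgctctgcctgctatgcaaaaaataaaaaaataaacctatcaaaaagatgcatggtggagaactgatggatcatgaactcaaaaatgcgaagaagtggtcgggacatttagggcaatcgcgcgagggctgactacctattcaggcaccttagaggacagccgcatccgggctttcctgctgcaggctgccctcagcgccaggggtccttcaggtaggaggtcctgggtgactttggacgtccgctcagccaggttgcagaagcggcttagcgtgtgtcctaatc

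Summed over the 84 nuclear members, the level was close in all 4 classes. It was 23582 CPM in T, 24705 CPM in NK and 22713 CPM in macrophage barcodes, against 25268 CPM in tumour barcodes. The ratios to tumour barcodes were 0.933 (95% interval 0.925 to 0.942; lower in 5 of 6 tags) for T, 0.978 (0.962 to 0.993; 3 of 3) for NK and 0.899 (0.892 to 0.906; 5 of 5) for macrophage barcodes. Within single tags the ratios ran from 0.801 to 1.05 in T, 0.961 to 0.997 in NK and 0.801 to 0.913 in macrophage barcodes. This spread is wider than the counting intervals. Keratin-low ratios were 0.911, 0.957 and 0.889. Direction in T and NK barcodes depends on what the total holds: ribosomal protein genes made up 24.4% of UMIs in T and 26.5% in NK barcodes, against 17.1% in tumour barcodes. With these genes out of the total, all T ratios shift by 0.13 and all NK ratios by 0.17 on the log2 scale, and the nuclear ratio becomes 1.02 in T and 1.102 in NK barcodes, above tumour barcodes, while it stays at 0.903 in macrophage barcodes.

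The 12 mitochondrially encoded members summed to 30346 CPM in T, 27576 CPM in NK and 32799 CPM in macrophage barcodes, against 33990 CPM in tumour barcodes. The ratios were 0.893 (0.886 to 0.8998; lower in 5 of 6 tags), 0.811 (0.799 to 0.823; 3 of 3) and 0.965 (0.959 to 0.971; 2 of 5). Keratin-low ratios were 0.830, 0.779 and 0.919, and without ribosomal protein genes in the total the ratios over all barcodes of the rule were 0.978, 0.914 and 0.969. Macrophage barcodes thus showed no direction common to their tags. Over all barcodes of the rule, the NK pool of 27576 CPM lay above each of its 3 tags compared. These stood at 26378, 23374 and 26101 CPM in U2, D0 and D1. NK barcodes of U3, U4 and D4 (3, 13 and 6) and 1 untagged enter the pool only. Together these lay above the pool value, and their direction against tumour barcodes was not compared. Barcodes at or over 15% mitochondrial UMIs had been removed, which caps these sums.

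**Figure D1:**
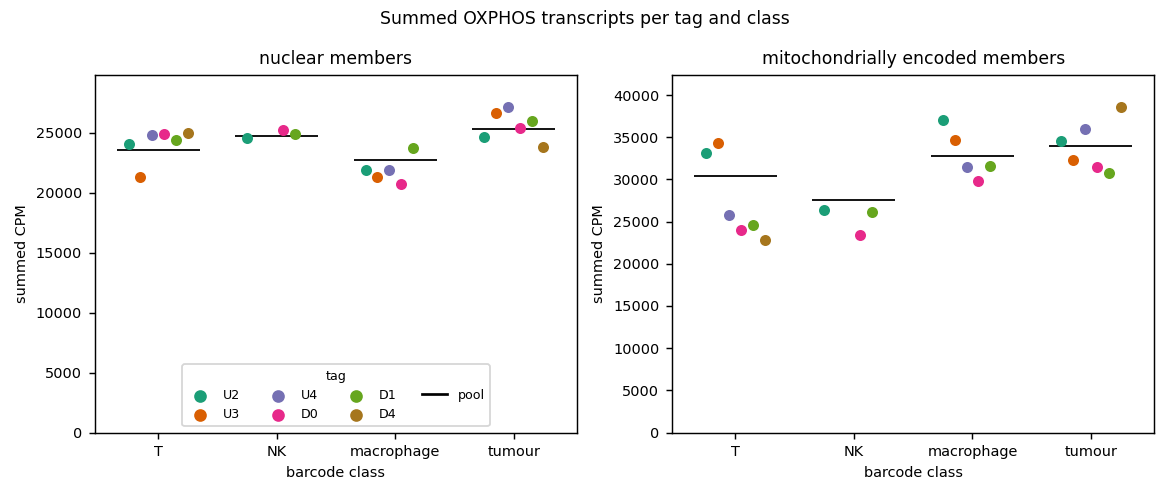
Summed CPM of the 84 nuclear members (left) and the 12 mitochondrially encoded members (right) in T, NK, macrophage and tumour barcodes. Each point is 1 antibody tag with at least 20 barcodes of the class and each line is the whole pool; the nuclear sum of T barcodes is lowest at tag U3 (21325 CPM), and their mitochondrial sums split into U2 and U3 (33147 and 34329 CPM) and 4 tags between 22876 and 25747 CPM.

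Of the 96 members, 86 averaged at least 10 CPM over the 4 classes and 10 did not. Few of the 86 differed by 1.5-fold. In T barcodes 3 were higher (Uqcrh, Ndufa3, mt-Nd6) and 3 lower (Uqcr11, Ndufa12, Ndufb9). Past the same fold were 24.5% of 7878 genes on the higher and 21.9% on the lower side. In NK barcodes 3 were higher (Ndufb11, Uqcrh, Ndufa3) and 6 lower (Uqcr11, Ndufa12, Ndufb9, mt-Nd1, mt-Nd3, mt-Nd4), beside 23.3% and 29.4% of all genes. In macrophage barcodes none was higher and 3 were lower (Ndufa4, Ndufb9, Ndufv1), beside 20.7% and 22.7%. Median ratios over the members were 0.930, 0.934 and 0.925 in T, NK and macrophage barcodes, beside 0.9896, 0.926 and 0.929 over all genes tested. The shares of all genes, here and below, were not matched to the expression level of the members.

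In keratin-low barcodes the lower side grew. In T barcodes 5 of 86 were higher and 17 lower (19.8%), in NK barcodes 5 and 15 (17.4%), and in macrophage barcodes 1 and 12 (14%). All genes also spread further, with 31.4% higher and 29.5% lower in T, 29% and 35% in NK, and 27% and 30.2% in macrophage barcodes. Complex I held 42 of the 86 members, of which 11 were lower in keratin-low T barcodes (26.2%). With each barcode thinned to 1000 UMIs, and no keratin limit, the lower members numbered 19 in T, 19 in NK and 15 in macrophage barcodes, beside 31.8%, 37.4% and 31.2% of all genes. With the barcodes of more than 1 tag kept, no member passed 1.5-fold in T barcodes in either direction, beside 18.1% of all genes higher and 11.2% lower. Without the barcodes of U2 the lower members in T numbered 8, beside 26.6% of all genes. The lower members in macrophage barcodes numbered 5 without the barcodes of D0 and 11 without those of D1, beside 22.7% and 28.3% of all genes.

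**Figure D2:**
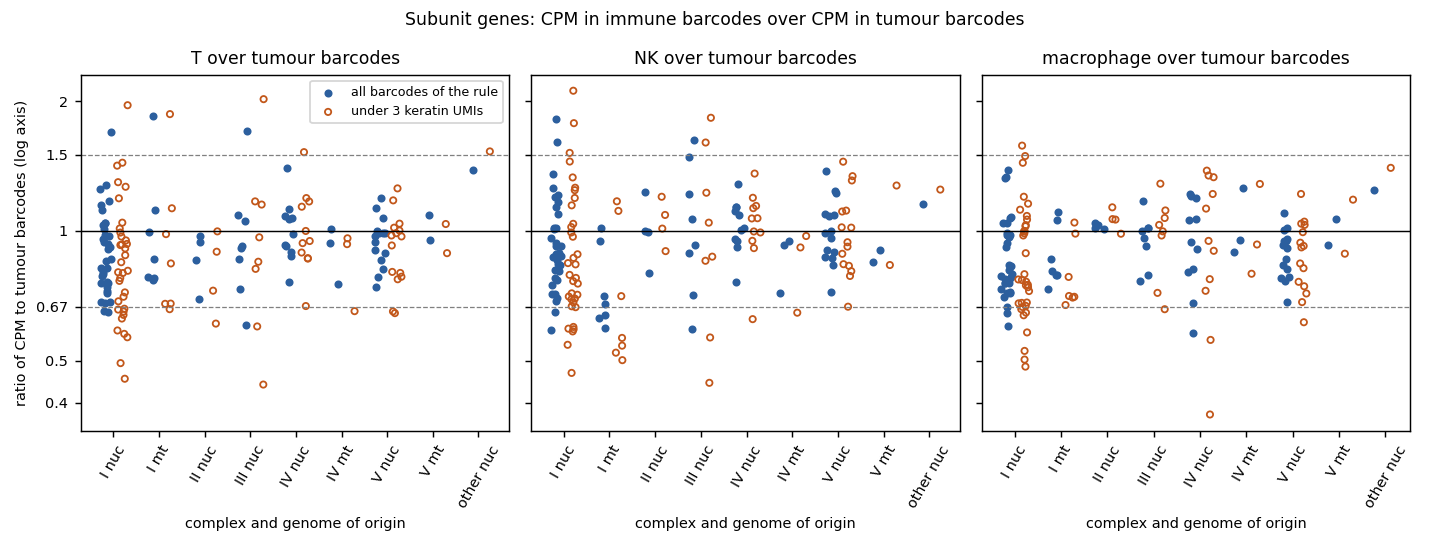
Ratio of CPM in T, NK and macrophage barcodes to CPM in tumour barcodes (log axis) for the 86 members reaching 10 CPM, by complex and genome of origin (nuc nuclear, mt mitochondrial; other is Cox7a2l). Filled points use all barcodes of the rule, open points those under 3 keratin UMIs, and dashed lines mark 1.5-fold; most points lie between the lines, and more open than filled points fall below the lower one.

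Among the nuclear genes of complex I, the entry point for NADH electrons, the sum of 35 genes was 6504 CPM in T, 6765 CPM in NK and 6463 CPM in macrophage barcodes, against 7452 CPM in tumour barcodes. The ratios were 0.873 (0.858 to 0.888), 0.908 (0.881 to 0.935) and 0.867 (0.854 to 0.880), and the class was lower in 5 of 6, 3 of 3 and 5 of 5 tags. The keratin-low ratios were 0.836, 0.864 and 0.837. Without ribosomal protein genes in the total the NK ratio becomes 1.02, while T (0.957) and macrophage barcodes (0.871) stay below tumour barcodes.

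Ndufa12 and Ndufb9, accessory subunits of complex I, were lower in each immune class (gene positions from GENCODE M21, GRCm38/mm10). Ndufa12 (chromosome 10, 94198720 to 94221443) stood at 213, 166, 155, 134, 222 and 90.1 CPM in T barcodes of U2, U3, U4, D0, D1 and D4, against 282, 282, 329, 309, 307 and 281 CPM in tumour barcodes. All 6 T values lie below all 6 tumour values. Its ratio was 0.647 (0.585 to 0.714) in T, 0.588 (0.483 to 0.710) in NK and 0.668 (0.612 to 0.728) in macrophage barcodes, and the keratin-low ratios were 0.454, 0.545 and 0.503. Ndufb9 (chromosome 15, 58933756 to 58939488) stood at 402, 317, 217, 442, 374 and 252 CPM in T barcodes of the same tags, against 535, 557, 573, 533, 595 and 504 CPM in tumour barcodes. Again no T value reached a tumour value. Its ratio was 0.653, 0.649 and 0.647 in T, NK and macrophage barcodes, and 0.494, 0.469 and 0.527 in keratin-low barcodes.

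Ndufv1 (chromosome 19, 4007384 to 4012806), the subunit that binds NADH and flavin, was at 62.6 CPM in T, 80.3 CPM in NK and 55.0 CPM in macrophage barcodes, against 91.2 CPM in tumour barcodes. The macrophage ratio was 0.603 (0.510 to 0.708; lower in 5 of 5 tags) and the keratin-low one 0.485. Ndufs1, Ndufs3, Ndufs7 and Ndufs8, core subunits of its matrix arm, had ratios of 1.03, 0.679, 0.717 and 0.725 in T barcodes and 0.703, 0.718, 0.757 and 0.830 in macrophage barcodes, none past 1.5-fold. Their keratin-low ratios were 1.01, 0.626, 0.577 and 0.660 in T and 0.659, 0.682, 0.647 and 0.750 in macrophage barcodes. They were named after their values were seen.

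A few accessory genes of complex I went the other way. Ndufa3 (chromosome 7, 3617373 to 3620327) stood at 177, 149, 248, 238, 187 and 234 CPM in T barcodes of U2, U3, U4, D0, D1 and D4, against 109, 131, 118, 120, 108 and 103 CPM in tumour barcodes. The T and tumour values do not overlap. Its ratio was 1.69 (1.53 to 1.88) in T, 1.82 (1.51 to 2.17) in NK and 1.32 (1.19 to 1.47) in macrophage barcodes, and 1.96, 2.11 and 1.58 in keratin-low barcodes. Ndufb11 (chromosome X, 20615326 to 20617619) was at 264, 405 and 324 CPM in NK barcodes of tags U2, D0 and D1, against 190, 201 and 199 CPM in tumour barcodes of these tags. The NK ratio was 1.61 (1.39 to 1.85), and T barcodes lay between at 1.28.

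The 7 complex I genes of the mitochondrial genome were the group furthest below tumour barcodes. They summed to 6573 CPM in T, 5158 CPM in NK and 6445 CPM in macrophage barcodes, against 7859 CPM in tumour barcodes. The ratios were 0.836 (0.822 to 0.851), 0.656 (0.634 to 0.679) and 0.820 (0.808 to 0.832), lower in 5 of 6, 3 of 3 and 5 of 5 tags. The NK pool again lay above its 3 tags compared, which stood at 4642, 3813 and 4824 CPM in U2, D0 and D1. Keratin-low ratios were 0.755, 0.582 and 0.735, then lower in 6 of 6, 3 of 3 and 4 of 4 tags. Leaving ribosomal protein genes out of the total, they were 0.917, 0.740 and 0.824 over all barcodes of the rule.

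The mitochondrial genome is transcribed into long joint precursors that are then cut. In NK barcodes mt-Nd1, mt-Nd3 and mt-Nd4 had ratios of 0.596 (0.556 to 0.637), 0.638 (0.530 to 0.761) and 0.629 (0.595 to 0.664), while mt-Nd5 was at 1.02. In T barcodes mt-Nd1, mt-Nd4 and mt-Nd4l had ratios of 0.768, 0.782 and 0.778, while mt-Nd2 was at 0.992 and mt-Nd5 at 1.12. mt-Nd4 stood at 1946, 1384 and 1889 CPM in NK barcodes of tags U2, D0 and D1, against 3485, 2994 and 2822 CPM in tumour barcodes. All 3 NK values lie below all tumour values. In T barcodes the tags U2 and U3, at 2870 and 3112 CPM of mt-Nd4, overlap the tumour range.

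mt-Nd6, the 1 protein gene on the other strand of the mitochondrial genome, had a T ratio of 1.84 (1.56 to 2.16; higher in 5 of 6 tags) from 155 UMIs in T barcodes. Its T values were 102, 59.1, 85.3, 49.7, 43.4 and 36.1 CPM in the 6 tags in the order U2, U3, U4, D0, D1, D4, against 42.7, 31.7, 38.4, 29.4, 32.1 and 43.5 CPM in tumour barcodes. The ranges overlap at the low end, and without the barcodes of 1 tag at a time the ratio ran from 1.42 to 1.95. Whether the authors' counting used the strand is not stated, so reads of its antisense neighbours cannot be told apart.

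Complex IV genes of the mitochondrial genome form the oxygen-reducing core. mt-Co1, which binds the haems and copper where oxygen is reduced, was at 9861, 7955, 7809, 7573 and 8037 CPM in macrophage barcodes of tags U2, U3, U4, D0 and D1, against 6609, 5950, 6524, 6382 and 6215 CPM in tumour barcodes of these tags. It was higher in macrophage barcodes of 5 of 5 tags, with a ratio of 1.26 (1.24 to 1.28). In T and NK barcodes mt-Co1 was at 1.01 and 0.948 of tumour barcodes. mt-Co2, which takes electrons from cytochrome c, was lower than in tumour barcodes in 6 of 6 T tags (ratio 0.755, keratin-low 0.652) and 3 of 3 NK tags (0.719, keratin-low 0.646). mt-Co3 lay at 0.936, 0.930 and 0.952 in T, NK and macrophage barcodes. Of the 2 complex V genes, mt-Atp6, part of the proton channel, was at 0.954, 0.849 and 0.926, and mt-Atp8 had 80 UMIs in T barcodes and a T ratio of 1.09 (0.862 to 1.36). The 3 complex IV genes summed to ratios of 0.896, 0.861 and 1.03, and the 2 complex V genes to 0.955, 0.849 and 0.927. Without ribosomal protein genes in the total these sums were 0.982, 0.970 and 1.04 for complex IV, and 1.05, 0.957 and 0.931 for complex V, so the T sum of complex V turns above tumour barcodes. Keratin-low ratios of the sums were 0.841, 0.838 and 1.001 for complex IV, and 0.889, 0.836 and 0.887 for complex V.

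Cytochrome b is spelled mt-Cytb in the files, so the naming rule did not take it, and it is given here as a neighbour. It stood at 3555, 3812, 1961, 2528, 2248 and 1460 CPM in T barcodes of U2, U3, U4, D0, D1 and D4, against 5334, 4990, 5869, 4623, 4651 and 5145 CPM in tumour barcodes. No immune class overlapped tumour barcodes in any tag compared. Its ratios were 0.629 (0.614 to 0.645), 0.517 (0.492 to 0.542) and 0.598 (0.585 to 0.611) in T, NK and macrophage barcodes, and 0.466, 0.349 and 0.419 in keratin-low barcodes. These were the lowest ratios of any mitochondrially encoded protein gene in each of the 3 classes.

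**Figure D3:**
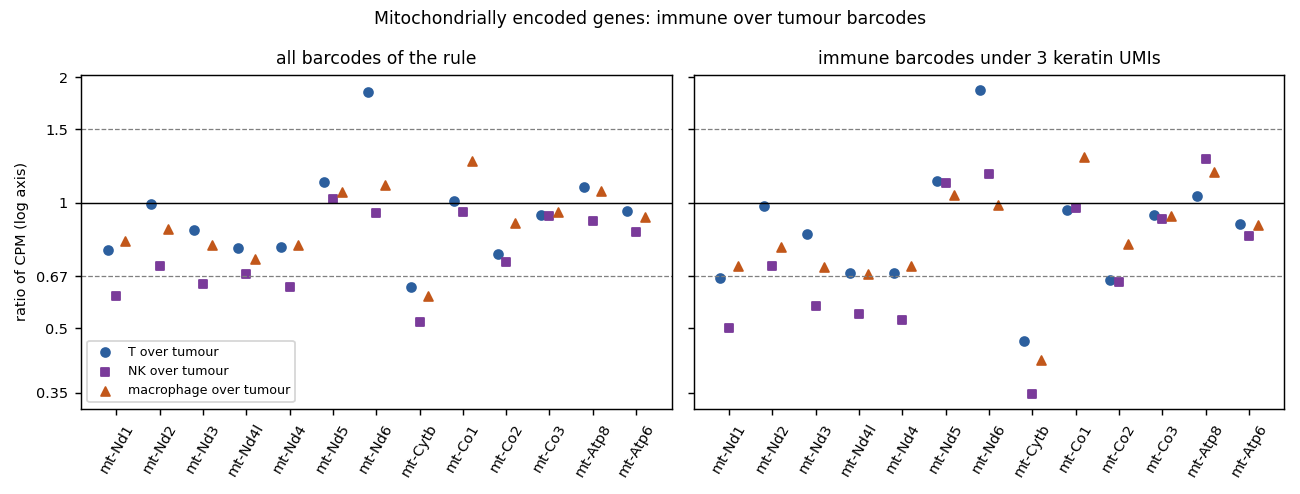
Ratio of CPM in T, NK and macrophage barcodes to CPM in tumour barcodes (log axis) for the 12 mitochondrially encoded members and mt-Cytb. The left panel uses all barcodes of the rule and the right panel immune barcodes under 3 keratin UMIs; mt-Cytb is lowest in both, and mt-Co1 in macrophage barcodes lies at 1.26 on the left and 1.28 on the right.

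Complex II, which also acts in the citric acid cycle, had only 4 genes and low counts, at 289 CPM in T, 332 CPM in NK and 338 CPM in macrophage barcodes, against 329 CPM in tumour barcodes. The ratios were 0.877 (0.808 to 0.95; lower in 5 of 6 tags), 1.01 (0.877 to 1.15; lower in 3 of 3) and 1.03 (0.961 to 1.10; lower in 3 of 5). Over all barcodes of the rule, the pooled NK and macrophage ratios thus do not give the direction within most tags. Taking ribosomal protein genes out of the total gave 0.961, 1.14 and 1.03. In keratin-low barcodes the ratios were 0.826 (lower in 5 of 6 tags), 1.06 (higher in 2 of 3) and 1.07 (higher in 3 of 4). There the pooled NK and macrophage ratios did go the way of most tags. None of Sdha, Sdhb, Sdhc and Sdhd passed 1.5-fold over all barcodes of the rule. Sdhc, a membrane anchor, was lower in T barcodes of 6 of 6 tags (ratio 0.694, 0.572 to 0.835, keratin-low 0.610), while its NK ratio of 1.23 had an interval of 0.943 to 1.58, and 2 of 3 tags were higher.

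Within complex III, 2 small subunits split in opposite directions. Uqcrh (chromosome 4, 116066965 to 116075071), the hinge protein next to cytochrome c1, stood at 724, 820, 1132, 1043, 881 and 1154 CPM in T barcodes of U2, U3, U4, D0, D1 and D4, against 487, 521, 513, 479, 477 and 455 CPM in tumour barcodes. All T values lie above all tumour values. In NK barcodes Uqcrh was at 691, 945 and 840 CPM in tags U2, D0 and D1, and these too lie above the tumour range. The ratio was 1.70 (1.63 to 1.79) in T, 1.62 (1.49 to 1.77) in NK and 1.17 (1.11 to 1.23) in macrophage barcodes, and 2.02, 1.83 and 1.29 in keratin-low barcodes.

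Uqcr11 (chromosome 10, 80402997 to 80406830), another small subunit, stood at 381, 332, 279, 313, 366 and 162 CPM in T barcodes of the same 6 tags, against 566, 600, 635, 574, 583 and 587 CPM in tumour barcodes. No T, NK or macrophage value reached the tumour range in any tag compared. Its ratio was 0.607 (0.564 to 0.653), 0.594 (0.517 to 0.678) and 0.788 (0.745 to 0.834) in T, NK and macrophage barcodes, and 0.440, 0.444 and 0.658 in keratin-low barcodes. Uqcrc1 and Uqcrc2, the large core proteins, had ratios of 0.912 and 1.09 in T barcodes and 1.07 and 1.48 in NK barcodes. As a sum, the 8 nuclear genes of complex III were at 0.959 (0.934 to 0.985), 0.966 (0.920 to 1.01) and 0.928 (0.906 to 0.9501) of tumour barcodes, and without ribosomal protein genes in the total at 1.05, 1.09 and 0.932. The keratin-low ratios of this sum were 0.957, 0.931 and 0.937. Cyc1, cytochrome c1, is outside the naming rule and had ratios of 0.583, 0.625 and 0.615, lower in all tags compared.

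**Figure D4:**
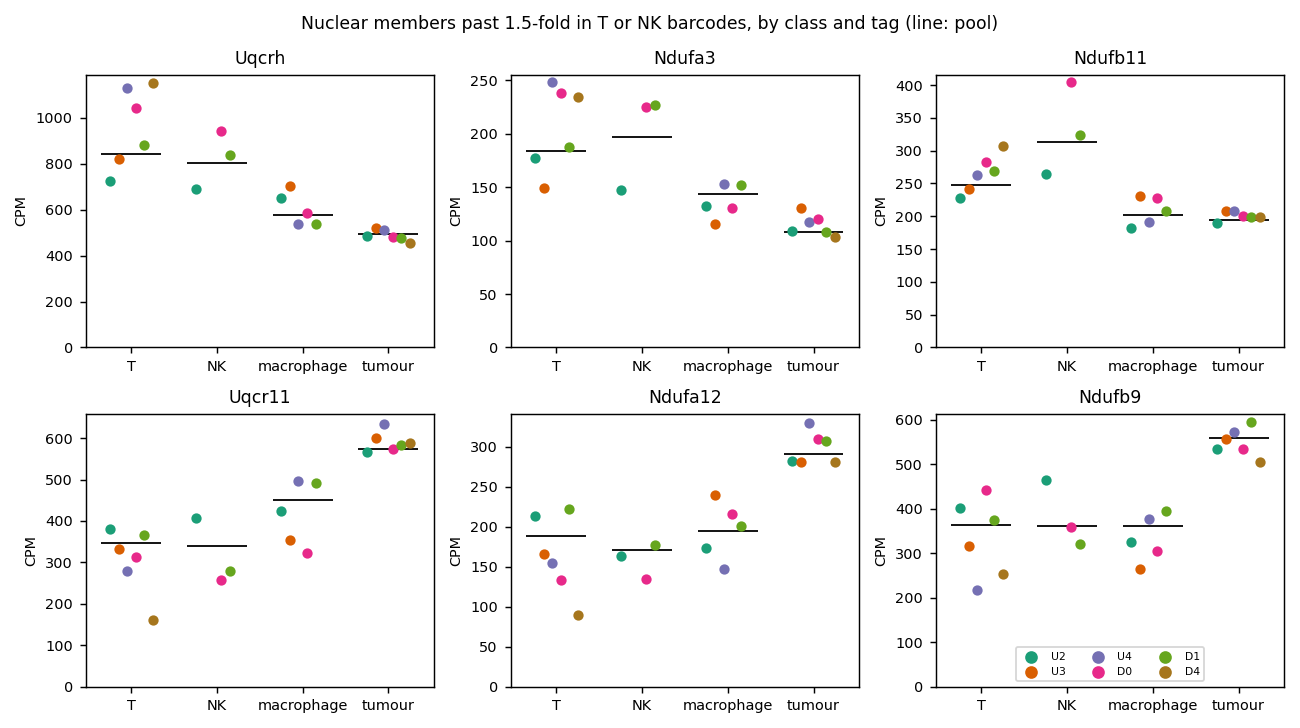
CPM of Uqcrh, Ndufa3 and Ndufb11 (top) and Uqcr11, Ndufa12 and Ndufb9 (bottom) in T, NK, macrophage and tumour barcodes. Each point is 1 tag with at least 20 barcodes of the class and each line the pool; T and NK points lie above the tumour points in the top row and below them in the bottom row.

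Most nuclear genes of complex IV lay near the tumour level. Cox4i1, a regulatory subunit, was at 1.08, 1.14 and 1.19 of tumour barcodes in T, NK and macrophage barcodes, Cox8a at 0.981, 1.09 and 0.907, and Cox6b1 at 1.13, 1.01 and 1.22. Cox6c was lower in each class, at 976 CPM in T, 976 CPM in NK and 869 CPM in macrophage barcodes, against 1279 CPM in tumour barcodes. Its ratio was 0.763 in T and in NK and 0.680 (0.652 to 0.708) in macrophage barcodes, where the keratin-low ratio was 0.559. The 18 genes summed to ratios of 0.949 (0.934 to 0.965), 1.01 (0.976 to 1.04) and 0.910 (0.896 to 0.923), which become 1.04, 1.13 and 0.914 without ribosomal protein genes in the total. The keratin-low ratios of this sum were 0.935, 0.994 and 0.903.

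Ndufa4 (chromosome 6, 11900292 to 11907497), once counted to complex I and now known as a subunit of complex IV, separated the immune classes. It stood at 274, 343, 465, 353, 426 and 469 CPM in T barcodes of U2, U3, U4, D0, D1 and D4, and at 106, 231, 70.2, 85.7 and 167 CPM in macrophage barcodes of tags U2, U3, U4, D0 and D1. Tumour barcodes held 195, 288, 273, 223, 261 and 216 CPM in the 6 tags. Within each tag compared, T barcodes were above tumour barcodes and macrophage barcodes below them. Across tags, the T value of U2 and the macrophage value of U3 fall inside the tumour range. The ratio was 1.40 (1.30 to 1.51) in T, 0.955 (0.807 to 1.12) in NK and 0.581 (0.524 to 0.642) in macrophage barcodes, and 1.52, 0.948 and 0.375 in keratin-low barcodes. When ribosomal protein genes are out of the total the NK ratio is 1.08, above tumour barcodes, and T (1.54) and macrophage barcodes (0.583) keep their side.

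Its paralog AA467197, the mouse counterpart of human C15orf48, lies outside the naming rule and was chosen after its values were seen. It stood at 360, 149, 93.0, 273, 114 and 198 CPM in T barcodes of the 6 tags, and at 776, 504, 1034, 922 and 837 CPM in macrophage barcodes of tags U2, U3, U4, D0 and D1. Tumour barcodes held 678, 332, 532, 591, 613 and 565 CPM. Here T barcodes were below and macrophage barcodes above tumour barcodes in each tag compared. The ratio was 0.416 (0.380 to 0.454) in T, 0.819 (0.728 to 0.918) in NK and 1.48 (1.42 to 1.54) in macrophage barcodes, and 0.205, 0.663 and 1.78 in keratin-low barcodes. Ndufa4l2, the third paralog and known as a hypoxia-induced gene, had 9 UMIs in T (4.27 CPM), none in NK and 1 in macrophage barcodes (0.367 CPM), against 55 in tumour barcodes (0.394 CPM). Its T ratio was 10.8 (4.70 to 22.1) from these few UMIs, higher in 2 of 6 tags.

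**Figure D5:**
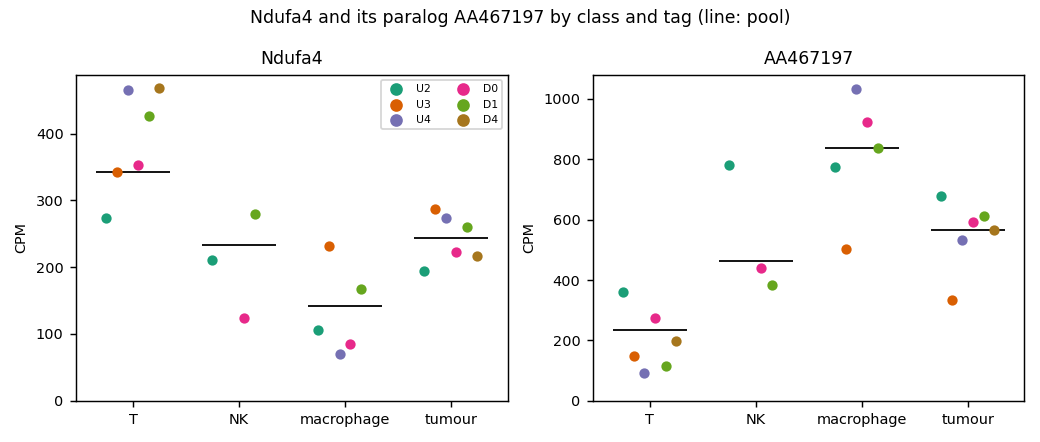
CPM of Ndufa4 (left) and its paralog AA467197 (right) in T, NK, macrophage and tumour barcodes. Each point is 1 tag and each line the pool; Ndufa4 is highest in T (342 CPM) and lowest in macrophage barcodes (142 CPM), and AA467197 is lowest in T (236 CPM) and highest in macrophage barcodes (837 CPM).

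The tissue-restricted forms of complex IV subunits were nearly absent. Cox8b, Cox8c and 1 of the 2 features named Atp5o had no UMI in any class. Cox7b2 had 2 UMIs, both in tumour barcodes (0.0143 CPM), a level below what a count of 0 allows in T barcodes (1.42 CPM). Cox4i2, Cox6a2, Cox6b2 and Cox7a1, forms of lung, muscle or testis, stayed below 10 CPM in every class. Cox7a1 stood at 1.90 CPM in T (4 UMIs), 0 in NK and 8.80 CPM in macrophage barcodes (24 UMIs), against 4.05 CPM in tumour barcodes (565 UMIs). Its macrophage ratio was 2.17 (1.38 to 3.27; higher in 4 of 5 tags) and its T ratio 0.468 (0.127 to 1.21). Cox7a2l, a supercomplex assembly factor and no structural subunit, had a ratio of 1.38 (1.29 to 1.49; higher in 6 of 6 tags) in T, 1.16 in NK and 1.25 in macrophage barcodes.

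In complex V the 16 nuclear genes summed to 7003 CPM in T, 7464 CPM in NK and 6538 CPM in macrophage barcodes, against 7336 CPM in tumour barcodes. The ratios were 0.955 (0.939 to 0.970), 1.02 (0.989 to 1.05) and 0.891 (0.878 to 0.905), and 1.05, 1.15 and 0.895 without ribosomal protein genes in the total. The keratin-low ratios were 0.927, 1.01 and 0.885. None of these genes reaching 10 CPM passed 1.5-fold over all barcodes of the rule. Atp5b, the catalytic beta subunit, was at 442 CPM in T, 409 CPM in NK and 387 CPM in macrophage barcodes, against 567 CPM in tumour barcodes. It was lower in each tag compared, with ratios of 0.780, 0.722 and 0.683 (keratin-low 0.645, 0.667 and 0.614), while Atp5a1, the alpha subunit that alternates with it in the same ring, was at 0.99, 1.09 and 1.01. Atp5f1, a stalk subunit, was higher in NK barcodes of 3 of 3 tags (ratio 1.38, 1.23 to 1.54).

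The genes Atp5g1, Atp5g2 and Atp5g3 encode the same mature proton-carrying ring subunit behind different leader sequences. Atp5g1 was at 299 CPM in T, 337 CPM in NK and 368 CPM in macrophage barcodes, against 404 CPM in tumour barcodes. Atp5g2 was at 662, 812 and 663 CPM in T, NK and macrophage barcodes, against 811 CPM in tumour barcodes. Atp5g3 was at 268, 280 and 243 CPM in these classes, against 313 CPM in tumour barcodes. All 3 were lower in T barcodes of 6 of 6 tags. None passed 1.5-fold over all barcodes of the rule, and in keratin-low T barcodes Atp5g1 did, at 0.651. How reads shared by such near-identical copies were counted is not stated.

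Over the 6 tags, levels of nuclear members in tumour barcodes varied less than those of mitochondrial members. The highest tag over the lowest had a median of 1.19 over 74 nuclear and 1.39 over 12 mitochondrial members, beside 1.32 over 7488 genes. It reached 1.5 in 2 mitochondrial members (16.7%) and in no nuclear one, beside 24.2% of the genes. The 2 were mt-Nd2 (1002 to 1511 CPM) and mt-Atp8 (29.2 to 43.8 CPM), both highest in tag D4 and lowest in tag D1. Among nuclear members Ndufa4 varied most (1.48), and Atp5l and Cox8a least (1.08 each). Because the treatment of each tag is unknown, these ranges hold any difference between ACSS2i and vehicle samples as well as other differences between the pooled samples.

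T barcodes varied more, and mainly in the mitochondrial sum. The mitochondrially encoded members stood at 33147, 34329, 25747, 24060, 24542 and 22876 CPM in the 6 tags in the order U2, U3, U4, D0, D1, D4, and the nuclear members at 24035, 21325, 24802, 24924, 24401 and 24985 CPM. Mitochondrial over nuclear UMIs came to 1.61 in U3 and 1.38 in U2, and to 0.916 to 1.04 in the other 4 tags. In keratin-low T barcodes the value was 1.76 in U3 and 0.921 to 1.20 in the other 5. T barcodes of U3 also differed in cell state markers, chosen after this was seen. A list of Gzmb, Gzmk, Nkg7, Ccl5, Prf1 and Ifng, genes of effector T cells, summed to 728 CPM in U3 and 3048 to 3952 CPM elsewhere. U2, the other tag with a high mitochondrial sum, had the highest value of this list, at 3952 CPM. A list of 6 genes of naive T cells summed to 1785 CPM in U3, 386 CPM in U2 and 462 to 1028 CPM in the other 4 tags. The part of cell state in the mitochondrial values was not tested.

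Across the 5212 tumour barcodes, the complexes varied together, as a description of barcodes that share library, total and depth. The nuclear sum had a 5th to 95th percentile range of 16529 to 33298 CPM and the mitochondrial sum one of 14208 to 64504 CPM. The nuclear sums of complexes I, III, IV and V correlated with each other at r of 0.639 to 0.765 across barcodes, and complex II, with fewer UMIs, at 0.267 to 0.371 with the others. The nuclear sum correlated with the nuclear genes of the mitochondrial ribosome at r = 0.732 (0.700 to 0.824 within single tags), and with the cytosolic ribosome at 0.207. With the mitochondrially encoded sum r was -0.363 (-0.454 to -0.240 within single tags), and with a list of 10 hypoxia genes -0.302 (-0.454 to -0.237). In the 2606 deeper barcodes these 2 values were -0.298 and -0.323. The nuclear sum had r of 0.043 with a glycolysis list (-0.168 to 0.180 within single tags) and 0.081 with a cell cycle list (-0.011 to 0.197). For the mitochondrially encoded sum r was -0.057 with the hypoxia list (-0.265 to 0.042), -0.245 with glycolysis and -0.076 with the cell cycle.

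Genes that build or serve the chain but are not its subunits were counted from fixed lists. The counts below stand beside the shares of all genes past 1.5-fold, which were 24.5% higher and 21.9% lower in T, 23.3% and 29.4% in NK, and 20.7% and 22.7% in macrophage barcodes. Of 45 assembly factors, 30 reached 10 CPM, and 5 were higher and 2 lower in T, 7 and 5 in NK, and 3 and 8 in macrophage barcodes. The 7 in NK are 23.3% and the 8 in macrophage barcodes 26.7%. Uqcc2, which helps to assemble cytochrome b into complex III, was at 340 CPM in T, 327 CPM in NK and 337 CPM in macrophage barcodes, against 612 CPM in tumour barcodes, with ratios of 0.556 (0.516 to 0.598), 0.535 (0.465 to 0.613) and 0.551 (0.516 to 0.588). Cox17, a copper chaperone for complex IV, had a T ratio of 1.73 (1.53 to 1.94). Of 18 genes of electron carriers and ubiquinone synthesis, 10 reached 10 CPM, and 1 was higher and 2 lower in T, 2 and 1 in NK, and 0 and 1 in macrophage barcodes. Cycs, cytochrome c, was at 0.829, 0.780 and 0.715 of tumour barcodes.

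Of 24 genes that copy, transcribe or translate the mitochondrial genome, 12 reached 10 CPM, and 2 were higher and none lower in T, 1 and 2 in NK, and 0 and 1 in macrophage barcodes. Tfam, which packages mitochondrial DNA and starts its transcription, was at 45.5 CPM in T, 18.9 CPM in NK and 20.9 CPM in macrophage barcodes, against 27.0 CPM in tumour barcodes, and its T ratio was 1.69 (1.36 to 2.07). Tfam and Cox17 were named after their values were seen. The mitochondrial ribosome list, with 76 genes reaching 10 CPM, had 3 higher and 4 lower in T, 5 and 15 in NK, and 1 and 13 in macrophage barcodes, with median ratios of 0.852, 0.947 and 0.819. In keratin-low barcodes 74 of these genes reached 10 CPM and 4 were higher and 26 lower (35.1%) in T, 7 and 24 (32.4%) in NK, and 2 and 23 (31.1%) in macrophage barcodes, beside 29.5%, 35% and 30.2% of all genes lower. Of 7 regulators reaching 10 CPM, 3 were higher and 2 lower in T, 1 and 1 in NK, and 1 and 1 in macrophage barcodes. Hif1a, the hypoxia-responsive factor, had a ratio of 1.97 (1.84 to 2.09) in T barcodes, and Nfe2l2, the antioxidant response factor, one of 2.26 (2.10 to 2.43) in macrophage and 0.639 in T barcodes. The coactivator genes Ppargc1a and Ppargc1b, named outside the fixed rule for naming genes, stayed below 5 CPM in every class.

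Of 8 genes of uncoupling and of ATP and ADP exchange reaching 10 CPM, 1 was higher and 2 lower in T, 1 and 4 in NK, and 1 and 1 in macrophage barcodes. Slc25a4, an exchanger of ADP for ATP, was at 381 CPM in T, 337 CPM in NK and 351 CPM in macrophage barcodes, against 721 CPM in tumour barcodes, and its ratios were 0.528, 0.467 and 0.487 (keratin-low 0.312, 0.265 and 0.247). Its paralog Slc25a5, chosen after its values were seen, had ratios of 1.01, 1.34 and 1.23. Ucp2, an inner membrane carrier of the uncoupling protein family, stood at 142, 107, 233, 184, 209 and 343 CPM in T barcodes of U2, U3, U4, D0, D1 and D4, and at 422, 231, 313, 424 and 344 CPM in macrophage barcodes of tags U2, U3, U4, D0 and D1. It was below 1 CPM in tumour barcodes of every tag, and was chosen after its values were seen. Of 13 glycolysis genes, 7 were lower in T, 7 in NK and none in macrophage barcodes, and the median ratios were 0.649, 0.535 and 0.878. In keratin-low barcodes the lower ones numbered 8, 11 and 5, and none was higher. Of 9 hypoxia genes reaching 10 CPM, 9 were lower in T, 7 in NK and 2 in macrophage barcodes, where 1 was higher. The 2 are 22.2%, beside 22.7% of all genes. Of 10 cell cycle genes, 2 were higher and 2 lower in T, 1 and 2 in NK, and 0 and 6 in macrophage barcodes. The cytosolic ribosome list, with 88 genes reaching 10 CPM, had 34 higher and 1 lower in T, 48 and 1 in NK, and 3 and 1 in macrophage barcodes.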

How the data were processed

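The deposited matrix holds counts of UMIs for 31053 genes and 6 antibody tags in 9747 barcodes of 1 pool, used as the authors deposited them. Cell Ranger and the build mm10 come from the submitters' processing notes, and per the file headers version 3.1.0 of the software made the matrix. The annotation counted against, any doublet removal and the strand setting are not given in the sources used here. Of the gene identifiers, 30934 matched GENCODE M21.

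The filter kept 8784 barcodes, those of 500 or more genes and a mitochondrial share below 15%. Tags were called with HTODemux (Seurat 5.3.0, R 4.3.3, positive quantile 0.99, seed 42), 865 barcodes with more than 1 tag were removed as doublets, and 2329 untagged barcodes stayed in the pool sums only. Classes followed the marker rules, and barcodes of more than 1 class were left out. UMIs were summed per class and per class and tag and scaled to CPM. Ratios carry exact 95% intervals (scipy 1.17.1), which cover counting error only, and the interval calculation was tested on simulated data. A gene was tested against the fold of 1.5 where its mean CPM over the 4 classes reached 10, and calls are of size only. No test between classes was run, because the tags have no known treatment and were not treated as replicates there. The tags of a class were set against a critical value only in the outlier check reported below. Totals were 2108877 UMIs in T, 635346 in NK and 2725811 in macrophage barcodes, against 139545308 in tumour barcodes.

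The members and lists were chosen with earlier results of these data known. Genes were named by a fixed rule: the 3 members with most tumour UMIs per complex and origin, the 2 highest and 2 lowest ratios per complex and comparison, all mitochondrial members, tissue-restricted and Atp5g paralogs, the extremes over tags, and the 3 genes with most UMIs per list. Exceptions are marked. Alternatives changed the filters, tag handling, class rules, scaling, depth and thresholds, and left out each tag.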

Additional observations from a re-analysis of the deposited data

Results flagged for a closer look

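The summed nuclear members in T barcodes of tag U3 stood at 21324.8 CPM, while the other 5 tags lay between 24035 and 24985.1 CPM. Its gap to the nearest tag was 0.740 of the whole range over 6 tags, above the 95% critical value of 0.625. This was 1 of 31 groups of tags examined in this way, and chance marks about 1 in 20. The same T barcodes had the highest mitochondrial sum of the 6 tags (34329 CPM) and the lowest effector list sum, 728 CPM. The part of these in the nuclear sum was not tested.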

How the results depend on the processing

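No paired analysis was possible because the labels give 2 libraries of 1 pool that share only 1 replicate number; immune and tumour barcodes were set side by side within each tag, as counts of direction without a test. Without ribosomal protein genes in the total, the nuclear ratio became 1.02 in T and 1.102 in NK barcodes and the NK mitochondrial ratio 0.914. The NK nuclear ratio was 0.953 with doubled marker thresholds, 0.953 as a mean of per-barcode CPM and 0.957 without immune barcodes of 3 or more keratin UMIs, a setting chosen after seeing the data. Counts of members past 1.5-fold moved most. With that keratin limit they were 5 higher and 17 lower in T, 5 and 15 in NK, and 1 and 12 in macrophage barcodes. Of all genes, 31.4% were then higher and 29.5% lower in T, 29% and 35% in NK, and 27% and 30.2% in macrophage barcodes. As means of per-barcode CPM, 21 were lower in T, 5 higher and 16 lower in NK, and 2 and 10 in macrophage barcodes. Of all genes, 30.8% were then lower in T, 28.7% higher and 34.7% lower in NK, and 26.2% and 29% in macrophage barcodes. Thinned to 1000 UMIs, 19 members were lower in T, 8 higher and 19 lower in NK, and 1 and 15 in macrophage barcodes. All genes then stood at 31.8% lower in T, 30.7% higher and 37.4% lower in NK, and 27.3% and 31.2% in macrophage barcodes. Without ribosomal protein genes, 5 were higher and 1 lower in T and 6 and 1 in NK. The all-gene shares were 29.3% and 17.7% in T and 28.7% and 23.8% in NK. With multi-tag barcodes kept, 0 and 0 in T and 1 and 2 in NK, beside 18.1% and 11.2%, and 17% and 19.1%, of all genes. At 2-fold, 0 and 0 in T, 0 and 0 in NK, and 0 lower in macrophage barcodes. The all-gene shares were 15.6% and 10.6% in T, 14.8% and 17.5% in NK, and 9.61% lower in macrophage barcodes. With no CPM minimum, 5 and 7 in T, 5 and 11 in NK, and 4 higher in macrophage barcodes. The all-gene shares were 26.6% and 43.6% in T, 19% and 56.3% in NK, and 21.6% higher in macrophage barcodes. Lower members were also 5 in T with no filter, 0 with at least 1000 genes, 5 with doubled thresholds and 5 with mt-Cytb and Cyc1 added. In macrophage barcodes they were 1 with barcodes of more than 1 class kept, 5 with doubled thresholds and 5 with mt-Cytb and Cyc1. Of all genes, 22.7% were lower in T with no filter, 12.8% with at least 1000 genes and 23.3% with doubled thresholds. In macrophage barcodes 15.6% were lower with barcodes of more than 1 class kept and 22.9% with doubled thresholds. Adding mt-Cytb and Cyc1 left the all-gene shares at 21.9% in T and 22.7% in macrophage barcodes. Leaving out each tag, the nuclear ratio ran from 0.911 to 0.964 in T, 0.968 to 0.995 in NK and 0.860 to 0.907 in macrophage barcodes, and the mitochondrial ratio from 0.846 to 0.910, 0.787 to 0.833 and 0.931 to 0.980. Higher members ran from 2 to 3, 3 to 4 and 0 to 0, and lower ones from 2 to 8 (8 without U2), 6 to 8 and 3 to 11 (5 without D0, 11 without D1). Of all genes, 26.6% were lower in T without U2. In macrophage barcodes 22.7% were lower without D0 and 28.3% without D1. The shares of all genes past the fold thus moved with the setting too. The causes were not tested. NK values rest on 121 barcodes.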
